A study of Mus musculus with 6 samples.

Results

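The subject here is a set of 10 genes of the left ventricle: the 3 PGC-1 coactivators (Ppargc1a, Ppargc1b and Pprc1), the 3 estrogen-related receptors (Esrra, Esrrb and Esrrg), the nuclear respiratory factors Nrf1 and Gabpa, and the mitochondrial transcription factors Tfam and Tfb2m. They are 10 of the 19938 genes that the platform annotation names with a single symbol, and they lie on 12 of the 28944 probe sets. The genes were chosen from earlier results of these same arrays, in which Ppargc1a and Ppargc1b were already known to differ between the groups. Their differences are therefore given as a description and support nothing by themselves. The tested hearts came from 10-week-old male C57BL/6 mice, written C57/BL6 in another label, that received 2-methyl-2-thiazoline (2MT), a small sulfur-containing compound, under the skin at 50 mg/kg and whose hearts were removed 4 h afterwards. The comparison hearts are labelled saline and share strain, sex, age and tissue, and the labels give no separate dose or time for them. The protocol text of the saline samples describes only the 2MT injection. Each group has 3 arrays. Whether they are 3 animals is not stated, so the p-values reflect array-to-array spread that could be purely technical. The submitters' stated purpose was to learn how the compound protects the heart.

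PGC-1 coactivators do not bind DNA themselves. They dock onto transcription factors such as the estrogen-related receptors, the PPARs and the nuclear respiratory factors, and so raise the transcription of nuclear genes for fuel oxidation and the respiratory chain. NRF1 and GABP (also called NRF-2, and unrelated to the antioxidant factor NFE2L2) in turn drive genes for the proteins that copy and transcribe mitochondrial DNA, TFAM and TFB2M among them. The heart depends on this circuit for its high density of mitochondria, and Ppargc1a is known to respond within hours to cyclic AMP, calcium and energy stress.

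The deposited values are 1 log2 signal per probe set and array, and a gene was tested where its mean over the 6 arrays was at least 4.345, the median of all probe sets. All 10 genes passed this filter, Nrf1 and Pprc1 by the least, at means of 4.73 and 4.91. Signals of different probe sets are not comparable as amounts of RNA, so each gene is compared only with itself. The tissue label was checked on 8 ventricular cardiomyocyte markers, whose mean lay at 12.39 to 12.43 in 2MT and 12.38 to 12.40 in saline. Across the 10547 genes tested, correlations ran from 0.992 to 0.995 within a group and from 0.987 to 0.990 between groups. A pair of saline arrays stood apart in another cell type. Saline 2 had the highest mean of 3 atrial markers, at 4.99, with 3.87 and 3.92 on the other saline arrays. The 2MT arrays read 3.71 to 3.83, so the groups did not overlap, and 2 of these 3 markers are under the dim limit. Saline 3 had the highest mean of 3 erythrocyte markers, at 5.97 against 5.04 to 5.38 on the other 5 arrays. Results are therefore also given without saline 2 and without saline 3.

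Promoter windows of 250 bases before to 50 bases after the start were taken from RefSeq on build GRCm38.p6. They cover 9 of the 10 genes, as 14 windows because some genes have several starts. A filter set here on the windows of the 10 genes left out a chromosome. No window of Ppargc1b was searched, so nothing is said of its promoter. The 32851 windows behind the shares below were not filtered in this way. Each window was searched on both strands for sites of the factors in this circuit. The searched letters were TNAAGGTCA for the estrogen-related receptors, GCATGCGC for NRF1, CCGGAAG for GABP, and TGACGTCA with the shorter core TGACG, which it contains, for CREB, the cyclic AMP response factor. Of the 32851 promoter windows in the table, 1.28% held the first, 2.71% the second, 8.86% the third, 1.79% the fourth and 20.8% the fifth. None of the 14 windows held TNAAGGTCA or the full TGACGTCA. The 250 bases upstream of 4 genes with a match there are shown: Ppargc1a, a coactivator that rose, the factors Esrra and Gabpa, and Tfam. They were picked for their place in the circuit. Capitals mark each match, and positions count back from -1 at the base before the start.

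Ppargc1a, chr5:51567726-51567975, minus strand, with the CREB core, read on the opposite strand, at -49 to -45: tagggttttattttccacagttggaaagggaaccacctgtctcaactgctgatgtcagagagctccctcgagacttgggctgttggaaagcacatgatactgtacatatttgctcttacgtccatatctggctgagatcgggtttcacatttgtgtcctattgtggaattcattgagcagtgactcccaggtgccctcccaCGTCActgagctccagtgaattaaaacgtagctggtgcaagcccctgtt
Esrra, chr19:6921809-6922058, minus strand, with an NRF1 match at -34 to -27: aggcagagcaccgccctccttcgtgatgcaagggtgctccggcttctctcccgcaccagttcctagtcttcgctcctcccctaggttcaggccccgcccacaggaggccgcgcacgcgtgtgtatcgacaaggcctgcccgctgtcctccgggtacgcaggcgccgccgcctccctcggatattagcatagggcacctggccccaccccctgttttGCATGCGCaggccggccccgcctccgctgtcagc
Gabpa, chr16:84834874-84835123, plus strand, with a GABP match on the opposite strand at -93 to -87: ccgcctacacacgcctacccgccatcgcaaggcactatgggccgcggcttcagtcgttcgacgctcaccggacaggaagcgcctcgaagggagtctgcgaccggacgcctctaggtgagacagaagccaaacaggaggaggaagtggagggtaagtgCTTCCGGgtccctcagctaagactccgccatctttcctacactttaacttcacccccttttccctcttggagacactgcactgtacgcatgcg
Tfam, chr10:71238045-71238294, minus strand, with a GABP match at -47 to -41: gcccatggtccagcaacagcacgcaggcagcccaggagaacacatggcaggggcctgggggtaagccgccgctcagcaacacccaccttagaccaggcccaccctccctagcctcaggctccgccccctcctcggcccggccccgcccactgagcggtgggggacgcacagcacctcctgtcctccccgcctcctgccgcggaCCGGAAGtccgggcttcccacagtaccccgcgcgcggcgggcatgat

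Tfb2m held an NRF1 match just after its start, at positions 14 to 21: ggtcgttcGCATGCGCcattcgta. One Esrrb window held the CREB core at 2 places. The windows of Pprc1, Esrrg and Nrf1 held none of the searched letters, which says only that those letters are not in these windows. A match is a description of the sequence, and no binding was measured.

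Ppargc1a and Ppargc1b were both higher on every 2MT array than on any saline array, and Pprc1 was not. Ppargc1a, the best studied coactivator of mitochondrial biogenesis, had log2 signals of 9.92, 9.86 and 9.99 in 2MT and 9.25, 9.59 and 9.41 in saline. The lowest 2MT array lay above the highest saline array, and the saline arrays were the more spread (SD 0.07 in 2MT and 0.17 in saline, n = 3 each). Its mean was higher by 0.51 ± 0.07 on the log2 scale (SE), a 1.42-fold difference with a 95% interval of 1.28 to 1.58. Of all genes tested, 99.6% had a lower difference.

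A further probe set of Ppargc1a gave the same direction with more scatter in 2MT. It read 7.44, 7.15 and 7.57 in 2MT and 6.98, 7.05 and 6.93 in saline, again without overlap, and 2MT 2 lay nearest to saline. With every probe set tested on its own, its difference was 0.40 ± 0.10 (SE) and did not pass, while that of the first probe set was 0.51 ± 0.08 and did. Which transcripts each probe set reads was not tested.

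Ppargc1b, the relative that shares most of the partners of Ppargc1a and is abundant in heart and brown fat, had a difference of larger size, which was not tested against that of Ppargc1a. It had 6.46, 6.47 and 6.41 in 2MT and 5.51, 5.78 and 5.77 in saline. The 2MT arrays were within 0.03 of each other by SD, and saline 1 was the lowest array. The difference was 0.76 ± 0.09 (SE), or 1.69-fold with a 95% interval of 1.49 to 1.93, above that of 99.9% of genes tested. Saline 1 was the lowest array for both genes: without it the differences were 0.42 for Ppargc1a and 0.67 for Ppargc1b. Without saline 2, the array with atrial markers, they were 0.59 and 0.81, and without saline 3, the array with erythrocyte markers, 0.50 and 0.80.

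Pprc1, the PGC-1-related coactivator that is best known as an early response of dividing cells to serum, stayed near the dim limit. It had 4.95, 4.76 and 4.88 in 2MT and 5.07, 4.91 and 4.90 in saline. The groups overlapped, and the difference was -0.10 ± 0.10 (SE), 0.935-fold with an interval of 0.807 to 1.08. It was -0.04 without saline 1 and -0.045 without 2MT 2.

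**Figure D1:**
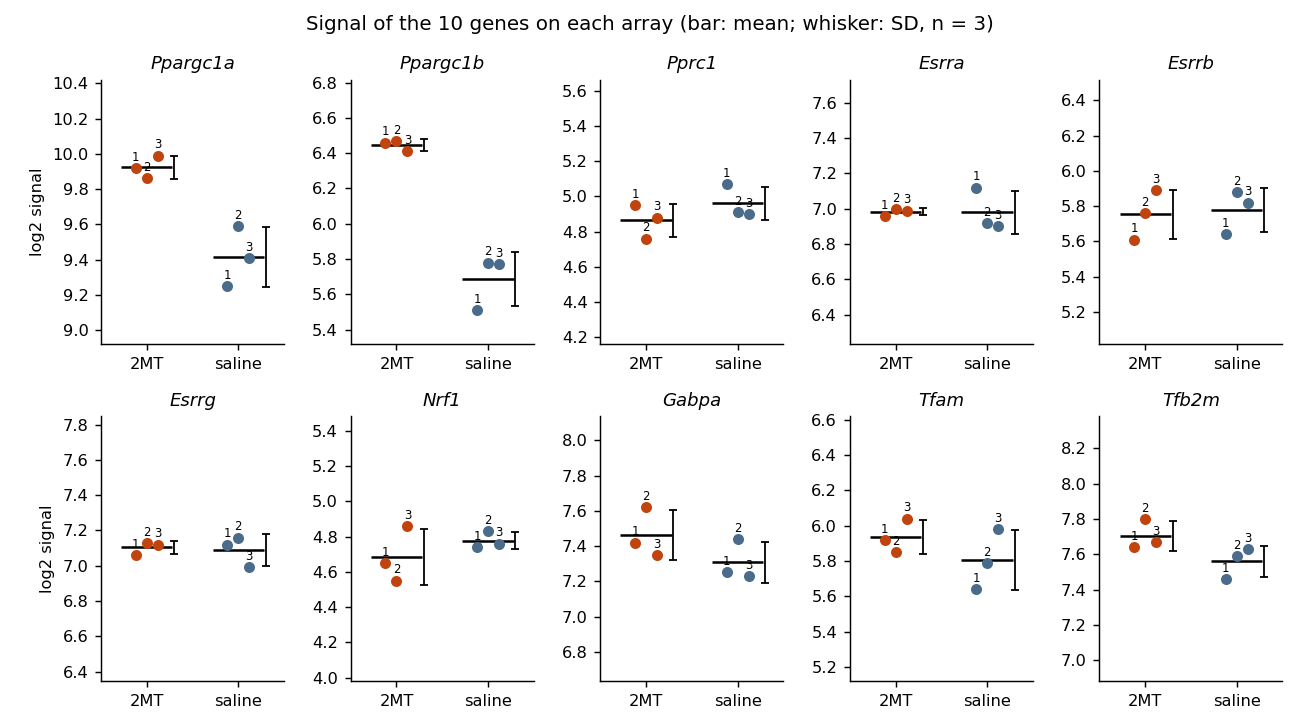
Log2 signal (vertical axis, 1.5 log2 units in every panel) of the 10 genes on each array, 2MT left of saline, with array numbers beside the points, a bar at the mean and a whisker of 1 SD on either side (n = 3). Ppargc1a and Ppargc1b are higher on all 2MT arrays, Tfb2m narrowly so, and the groups overlap for the other 7 genes.

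The estrogen-related receptors, orphan nuclear receptors that bind energy metabolism genes and need a PGC-1 coactivator for full activity, did not pass the test. Esrra, itself a known target of Ppargc1a, had 6.96, 7.0 and 6.99 in 2MT and 7.12, 6.92 and 6.90 in saline. All 2MT values lay inside the saline range, which saline 1 widened at its upper end. The difference was 0.003 ± 0.073 (SE), and the 95% interval allows no more than a 1.12-fold rise or a fall to 0.899-fold.

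Esrrg, the receptor that sustains oxidative metabolism in cardiac muscle, had 7.06, 7.13 and 7.12 in 2MT and 7.12, 7.16 and 6.99 in saline. The groups overlapped, with a difference of 0.01 ± 0.07 and a fold interval of 0.912 to 1.12. Esrrb, better known from stem cells and placenta, had 5.61, 5.76 and 5.89 in 2MT and 5.64, 5.88 and 5.82 in saline. Its arrays spread by more than the groups differed, at -0.03 ± 0.10 (SE), with a fold interval of 0.850 to 1.13. The sign of all 3 receptors' differences turned when some single arrays were left out, so none has a direction here.

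The nuclear respiratory factors did not pass either. Gabpa, the DNA-binding subunit of GABP, had 7.42, 7.62 and 7.35 in 2MT and 7.25, 7.44 and 7.23 in saline. Array 2 was the highest of each group, and 2MT was higher in 7 of the 9 pairs of arrays. The difference of 0.16 ± 0.08 (SE) had a fold interval of 0.987 to 1.26. It was 0.08 without 2MT 2, and 0.12 to 0.22 without any other single array. Nrf1 had 4.65, 4.55 and 4.86 in 2MT and 4.74, 4.83 and 4.76 in saline, close to the dim limit. The highest and the lowest of its values were both 2MT arrays, and the difference was -0.09 ± 0.11, with a fold interval of 0.802 to 1.10. It was -0.02 without 2MT 2 and -0.18 without 2MT 3.

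Of the targets inside mitochondria, Tfam packages and transcribes mitochondrial DNA and Tfb2m melts its promoters for the mitochondrial RNA polymerase. Tfam had 5.92, 5.85 and 6.04 in 2MT and 5.64, 5.79 and 5.98 in saline. Saline 3 reached into the 2MT range, and the difference was 0.13 ± 0.10 (SE), with a fold interval of 0.950 to 1.27. It was 0.05 without saline 1, 0.08 without 2MT 3 and 0.22 without saline 3, so its size rests on single arrays of both groups.

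Tfb2m had 7.64, 7.80 and 7.67 in 2MT and 7.46, 7.59 and 7.63 in saline. The groups did not overlap, by a gap of 0.01 between 2MT 1 and saline 3. The difference was 0.14 ± 0.07 (SE), with a fold interval of 0.998 to 1.22, and it did not pass. It was 0.09 without saline 1 and 0.095 without 2MT 2. A further probe set annotated to Tfb2m read within 0.03 of this one on every array, at a difference of 0.16 ± 0.07, and it did not pass in the fit of every probe set. Whether these probe sets read different sequence was not tested, so they are not taken as separate measurements.

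**Figure D2:**
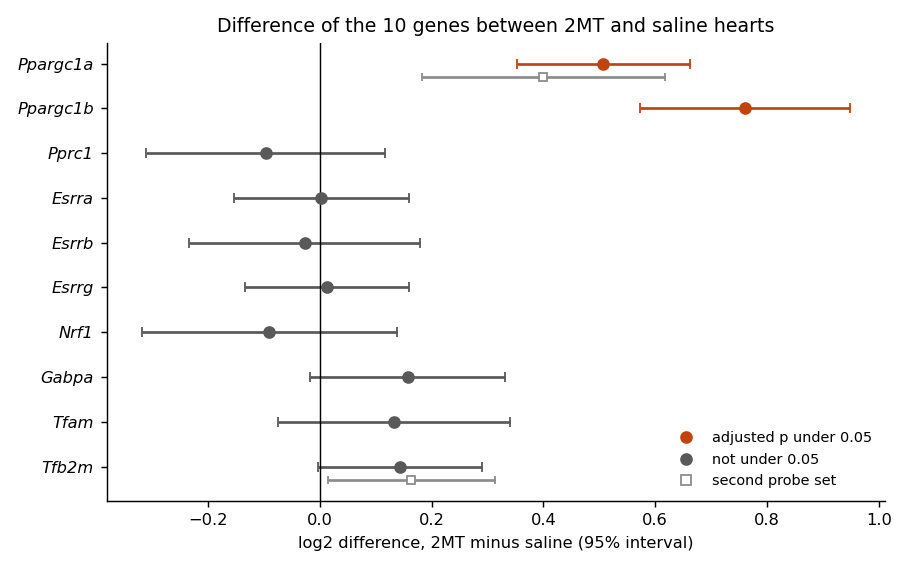
Log2 difference of 2MT minus saline (horizontal axis) for each of the 10 genes, with 95% intervals from limma, and for the 2 further probe sets as open squares. The intervals of Ppargc1a and Ppargc1b lie above 0 and those of the other 8 genes reach it. That of the open square of Tfb2m starts at 0.01.

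Of the 10 genes, 2 rose (Ppargc1a and Ppargc1b) and 0 fell at an adjusted p under 0.05 in limma, and 2 had an unadjusted p under 0.05. Over all genes tested 4.63% passed, 2.22% higher and 2.41% lower in 2MT. Because the genes were chosen with this comparison known, the count is not read against that share. In 3 of the 10 the groups did not overlap, against 21.1% of all genes tested. The median difference of the 10 genes was 0.07, beside 0.0033 over all genes tested, and 7 had a higher mean in 2MT.

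**Figure D3:**
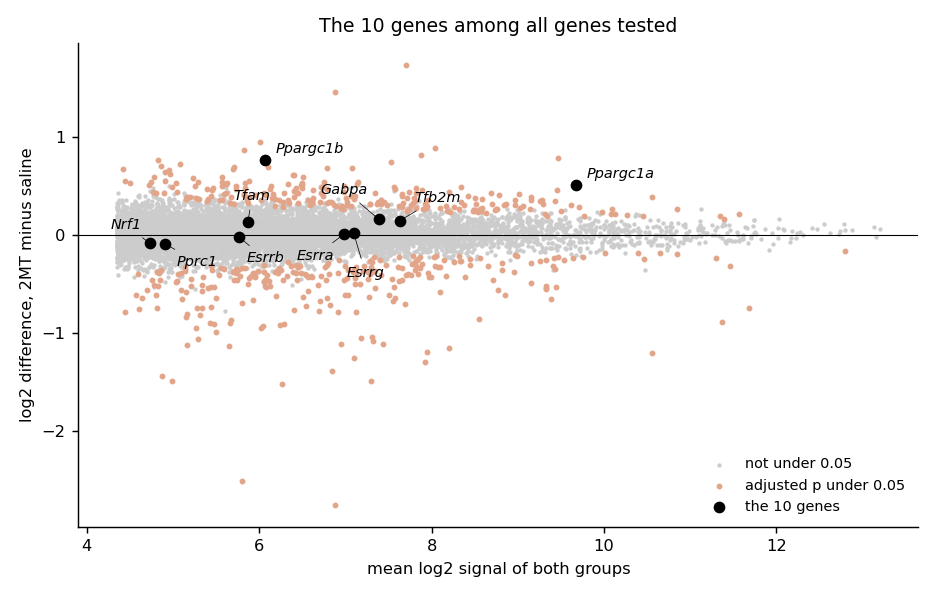
Log2 difference of 2MT minus saline (vertical axis) against mean log2 signal of both groups (horizontal axis) for the 10547 genes tested, with genes at an adjusted p under 0.05 in colour and the 10 genes in black. Ppargc1b and Ppargc1a lie at the upper edge for their signal, at 0.76 and 0.51, and the other 8 lie between -0.10 and 0.16.

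Signals and enzymes that act on PGC-1 expression or protein were examined as a list of 34 genes, of which 32 were tested. In limma 1 rose and 1 fell (9 at an unadjusted p under 0.05), and the median difference was 0.06. Over all 10547 genes tested 234 rose and 254 fell, 1873 had an unadjusted p under 0.05 and the median was 0.0033. These values stand beside every list here as a description only. The lists were chosen with earlier results of these data known. Map2k3, a kinase that activates p38, which phosphorylates PGC-1alpha, had 7.31, 7.56 and 7.41 in 2MT and 7.91, 7.85 and 7.92 in saline. Every 2MT array lay below every saline array, and the gene fell by 0.47 on the log2 scale (SE 0.07, adjusted p = 0.0013). Mef2a, a muscle transcription factor that binds the Ppargc1a promoter, had 9.41, 9.44 and 9.45 in 2MT and 9.21, 9.31 and 9.20 in saline. Its groups did not overlap, and it rose by 0.19 ± 0.05 (SE, adjusted p = 0.042 in limma). That call was lost in 11 of 17 alternatives, over which the adjusted p ran from 0.034 to 0.18. It was 0.080 without 2MT 1, 0.13 without 2MT 2, 0.17 without 2MT 3, 0.13 without saline 1 and 0.082 without saline 3. Map2k6, another kinase that activates p38, lay on the opposite side to Map2k3, at 4.85, 4.83 and 5.10 in 2MT and 4.53, 4.72 and 4.49 in saline. Its groups did not overlap, and its difference of 0.35 ± 0.11 did not pass (SE, adjusted p = 0.10 in limma).

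The energy sensor AMPK, which also phosphorylates PGC-1alpha, did not pass in the subunits that follow. Its regulatory subunit Prkab1 had the largest positive difference in the list, with 7.03, 7.15 and 7.10 in 2MT and 6.47, 6.72 and 6.99 in saline. The groups did not overlap, the saline arrays were widely spread, and the difference was 0.37 ± 0.10 (SE, adjusted p = 0.063 in limma). Of its catalytic subunits, Prkaa1 differed by 0.10 ± 0.07 and Prkaa2 by 0.09 ± 0.06 (SE). The deacetylase Sirt1 differed by 0.06 ± 0.09. Creb1 and its coactivator Crtc2, through which cyclic AMP reaches the Ppargc1a promoter, differed by -0.03 ± 0.09 and -0.13 ± 0.09. Of the last 5 genes only Prkaa2 had groups that did not overlap, at 8.73 for the lowest 2MT array and 8.72 for the highest saline array.

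Of 20 coactivator and corepressor partners 17 were tested, and 0 passed in limma (3 at an unadjusted p under 0.05), with a median difference of 0.02. The smallest p belonged to Smarcd1, a chromatin remodelling subunit that binds PGC-1alpha, with 6.39 ± 0.14 on the 2MT arrays and 6.09 ± 0.08 on the saline arrays (SD of 3, limma adjusted p = 0.066). Med1, the Mediator subunit that contacts nuclear receptors, came next with 6.93 ± 0.04 on the 2MT arrays and 6.71 ± 0.06 on the saline arrays (SD of 3, limma adjusted p = 0.093).

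Of 22 nuclear receptors and transcription factors that PGC-1 proteins join, 20 were tested, 1 fell and 0 rose in limma, 6 had an unadjusted p under 0.05, and the median difference was -0.02. Ppard, a PPAR that acts on fat oxidation genes in heart, had 6.23, 6.23 and 6.17 in 2MT and 6.61, 6.45 and 6.52 in saline. The groups did not overlap, and the gene fell by 0.32 on the log2 scale (SE 0.07, adjusted p = 0.024 in limma). The adjusted p ran from 0.018 to 0.12 over 17 alternatives. It was 0.060 without 2MT 1, 0.075 without 2MT 2, 0.12 without 2MT 3 and 0.10 without saline 1. Ppara, the main PPAR of cardiac muscle, differed by 0.20 ± 0.08 (SE) and did not pass. The GABP partner subunits Gabpb1 and Gabpb2 differed by 0.05 ± 0.09 and -0.04 ± 0.105.

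Of 24 genes for the upkeep and transcription of mitochondrial DNA 21 were tested and 0 passed in limma (4 at an unadjusted p under 0.05), with a median of 0.04. The median was -0.015 without 2MT 2, -0.008 without saline 2 and 0.002 without 2MT 3, so it has no settled direction. The smallest p belonged to Tefm, the mitochondrial transcription elongation factor, with 6.14 ± 0.15 on the 2MT arrays and 5.87 ± 0.05 on the saline arrays (SD of 3, limma adjusted p = 0.11). Slirp, which stabilises mitochondrial messenger RNAs, had 7.97 ± 0.03 on the 2MT arrays and 8.15 ± 0.14 on the saline arrays (SD of 3, limma adjusted p = 0.17), and passed without saline 2 (adjusted p = 0.035, with a range of 0.035 to 0.41 over the alternatives). Tfb1m, the ribosomal RNA methyltransferase related to Tfb2m, differed by 0.13 ± 0.09 (SE), and Polrmt, the RNA polymerase that Tfam and Tfb2m serve, by -0.04 ± 0.07. The 15 listed genes encoded on mitochondrial DNA had no probe set with a single symbol in the annotation used here and were not analysed.

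Energy metabolism genes known as targets of PGC-1 and the estrogen-related receptors did not move one way. Of 34 listed, 31 were tested, 1 rose and 2 fell (10 at an unadjusted p under 0.05), and the median was 0.01. Vegfa, the angiogenic factor that PGC-1alpha and ERRalpha induce in muscle, had 8.75, 8.49 and 8.62 in 2MT and 8.31, 8.33 and 8.04 in saline. Its groups did not overlap, and it rose by 0.39 ± 0.08 (SE, adjusted p = 0.013 in limma). The adjusted p was 0.062 without 2MT 1, 0.065 without 2MT 3 and 0.075 without the variance trend, and ran from 0.0043 to 0.075 over 17 alternatives.

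The falls were of Pdk4, the kinase that shuts off pyruvate dehydrogenase, and Ucp3, an uncoupling protein, both of which are targets of PPARs as well. Pdk4 had 10.72, 11.16 and 10.89 in 2MT and 11.77, 11.91 and 11.77 in saline. Ucp3 had 6.97, 7.59 and 7.19 in 2MT and 7.81, 7.88 and 7.99 in saline. Both were lower on every 2MT array than on any saline array, while Ppargc1a and Ppargc1b were higher on the same arrays. Pdk4 fell by 0.89 on the log2 scale (SE 0.08, adjusted p = 2.1e-05 in limma) and Ucp3 by 0.64 (SE 0.12, adjusted p = 0.0057), and both passed in 17 of 17 alternatives. Cycs, cytochrome c, differed by 0.15 ± 0.05 (SE) and did not pass. Slc2a4, Atp5c1 and Hadhb were also higher in 2MT, by 0.17 ± 0.05, 0.14 ± 0.04 and 0.10 ± 0.04, without passing. Acadm, a fatty acid dehydrogenase long used as a readout of the estrogen-related receptors, differed by 0.08 ± 0.04 and did not pass. Ndufs4, Cox5a and Uqcrc1 lay on the other side, at -0.18 ± 0.05, -0.13 ± 0.05 and -0.12 ± 0.04, and did not pass either. Of the 31 targets tested, 16 had a higher mean in 2MT and 15 a lower one.

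Mitochondrial protein import and assembly genes (23 of 25 tested) and mitochondrial dynamics and mitophagy genes (14 of 16 tested) had 0 called in limma, with 3 and 2 at an unadjusted p under 0.05 and medians of 0.01 and 0.04. The smallest p values in the first list belonged to Tomm7, a regulator of the outer membrane import pore, with 8.11 ± 0.13 on the 2MT arrays and 8.35 ± 0.07 on the saline arrays (SD of 3, limma adjusted p = 0.069), and Gfer, a sulfhydryl oxidase, with 4.75 ± 0.12 on the 2MT arrays and 5.01 ± 0.09 on the saline arrays. Tomm7 passed without saline 3 (adjusted p = 0.047, within a range of 0.047 to 0.27). In the second list they belonged to Fis1, a fission adaptor, with 7.75 ± 0.03 on the 2MT arrays and 7.92 ± 0.09 on the saline arrays, and Bnip3, a mitophagy receptor, with 9.73 ± 0.12 on the 2MT arrays and 9.87 ± 0.07 on the saline arrays (SD of 3).

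**Figure D4:**
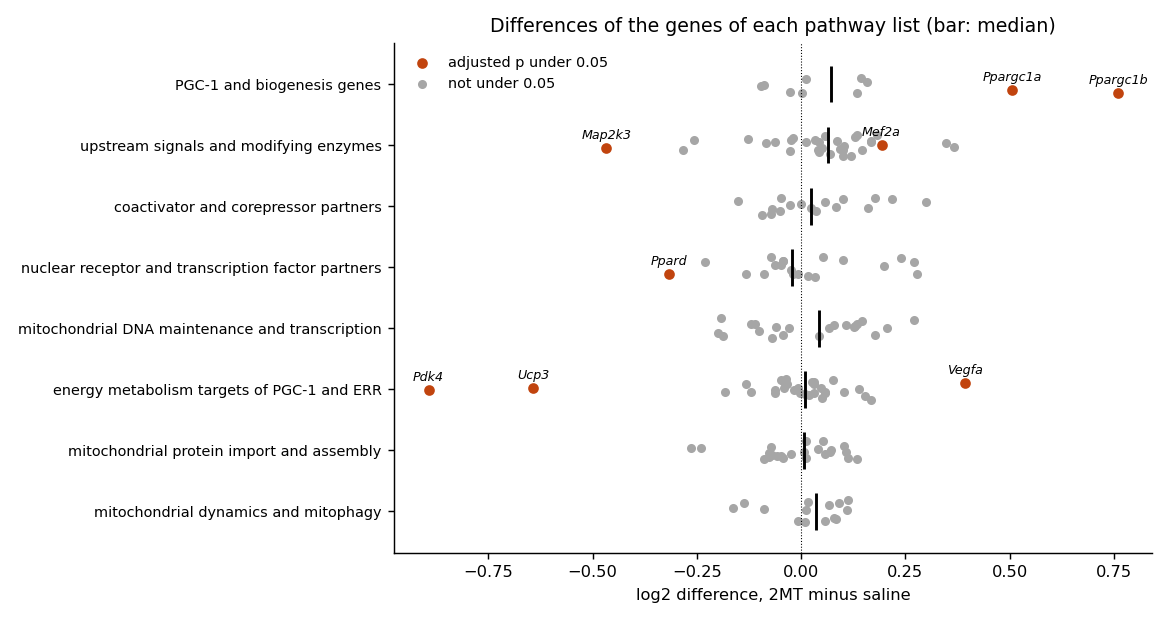
Log2 difference of 2MT minus saline (horizontal axis) for the tested genes of each list, 1 point per gene, with named points at an adjusted p under 0.05 in limma and a bar at the list's median. The medians lie between -0.02 and 0.07, and the named points are few in every list.

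The tested genes whose profile over the 6 arrays lay closest to that of Ppargc1a were Meox2, Rel, Irs1, Dusp10 and Bhlhe41. Likeness was the mean absolute difference between profiles, each taken relative to its own saline mean, and it was 0.068 to 0.075 log2 units for these genes. Irs1, the insulin receptor substrate, differed by 0.61 ± 0.08 (SE), and by 0.34 with the mean of its probe sets. Those closest to Ppargc1b were Dnajb5, Nrp1, Zfp30, Prox1 and B3galt2, at 0.061 to 0.092. Nrp1, a co-receptor of VEGF, differed by 0.74 ± 0.06, and Prox1, a homeobox factor, by 0.68 ± 0.07. These genes were picked for their pattern, so their differences are a description.

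Markers of cells other than cardiomyocytes were read beside these results. In bulk tissue, fewer cells of a type and less RNA per cell cannot be told apart. Their mean signals were 7.57 to 7.74 in 2MT and 7.53 to 7.78 in saline for 8 endothelial markers, 6.82 to 7.01 and 6.88 to 6.92 for 8 fibroblast markers, and 5.98 to 6.11 and 5.90 to 6.12 for 7 macrophage markers, the 2MT range first each time. The ranges overlapped for all 3 types. They also did for 6 smooth muscle and pericyte markers (7.02 to 7.23 in 2MT and 7.04 to 7.15 in saline). The same held for 8 skeletal muscle markers, 4 of them under the dim limit (5.33 to 5.38 in 2MT and 5.22 to 5.47 in saline). The 5 neuron and Schwann cell markers, 3 of them under the dim limit, read 3.85 to 3.95 in 2MT and 3.95 to 4.06 in saline, and the part of this in the results was not tested. Pecam1, an endothelial adhesion molecule, passed and fell by 0.33 on the log2 scale (SE 0.07, adjusted p = 0.020 in limma). That call held in 11 of 17 alternatives, over which the adjusted p in limma ran from 0.0031 to 0.11. Losses included those without 2MT 2 (adjusted p = 0.092), 2MT 3 (0.11), saline 1 (0.094) and saline 2 (0.086). The endothelial markers did not go one way: 3 of the 8 had a higher mean in 2MT and 5 a lower one. Kdr differed by 0.24 ± 0.09 and Fabp4 by -0.14 ± 0.05 (SE), both without overlap of the groups, and neither passed.

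Ppargc1a and Ppargc1b are also abundant in brown fat, so adipocyte markers are set beside them. Of 6 matched adipocyte markers 5 were under the dim limit, among them Ucp1, at 3.23, 3.29 and 3.36 in 2MT and 3.24, 3.14 and 3.27 in saline. The mean of the 6 was 3.88 to 3.96 in 2MT and 3.86 to 3.95 in saline. Cidea, a lipid droplet protein and the marker above the limit, fell by 0.26 on the log2 scale (SE 0.07, adjusted p = 0.044 in limma). That call was lost in 11 of 17 alternatives, including each array left out (adjusted p of 0.14, 0.052 and 0.17 without 2MT 1, 2 and 3, and 0.17, 0.056 and 0.057 without saline 1, 2 and 3), within a range of 0.036 to 0.17.

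**Figure D5:**
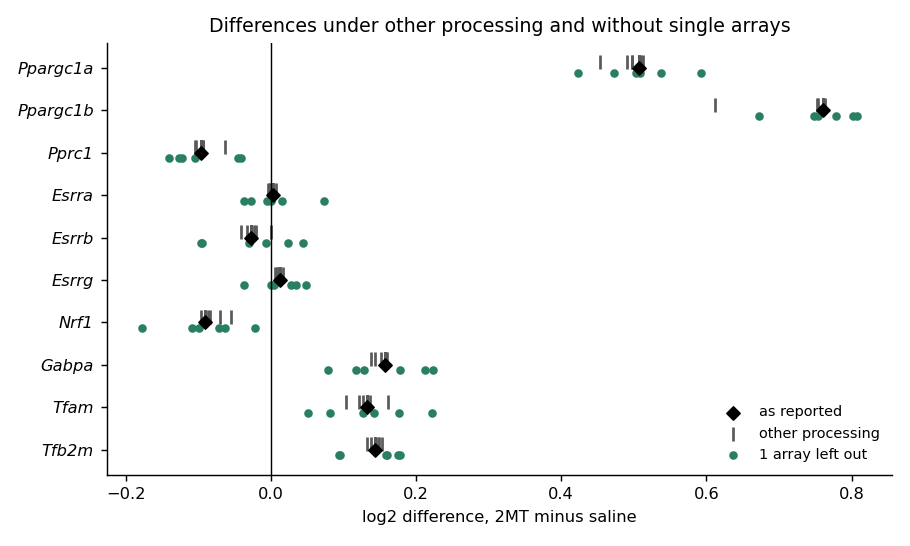
Log2 difference of 2MT minus saline (horizontal axis) of the 10 genes as reported, under 11 other processing choices and with each of the 6 arrays left out. Ppargc1a stays between 0.42 and 0.59 and Ppargc1b between 0.61 and 0.81, while the points of Esrra, Esrrb and Esrrg fall on both sides of 0.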

How the data were processed

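Left ventricles were measured on 6 Affymetrix arrays, 3 of 2MT hearts and 3 of saline hearts, from 100 ng of total RNA per the labels' protocols. The deposited log2 signals run from 0.51 to 13.5 with array medians of 4.32 to 4.37, and were used as given. The base of the logarithm was inferred from that range. MAS5 appears in the submitters' processing notes with no role or version, and how the signals were normalized is not given in the sources used here. No detection calls were used, so signal over background is unknown, and precision is limited by having 3 arrays a group.

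Groups came from the sample titles. Probe sets were named through the platform annotation, with 21789 having 1 symbol, 1621 several and 5534 none here, and 21698 of the first kind matched the RefSeq gene table by Entrez ID. The brightest probe set by mean stood for each gene, and genes under 4.345 were left out. 2MT was compared with saline in limma 3.58.1 under R 4.3.3 (variance trend, two-sided, Benjamini-Hochberg over all 10547 genes, threshold 0.05). An exact permutation test of 3 against 3 cannot go below 0.1. The procedure was tested on simulated data with 3 arrays a group, where sets of 50 genes were raised by a known fold. It called 40% of them at 1.25-fold, 84% at 1.5-fold, 98% at 2-fold and 100% at 3-fold. False calls numbered 14 among the other genes. A true difference near 1.25-fold or below can therefore go uncalled here. Figures used matplotlib 3.10.9.

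The 10 genes and the lists were chosen with earlier results of these data known. Of 268 listed genes, 233 matched a probe set with 1 symbol. The named genes are the 10, the passing genes of a list where 5 or fewer passed (otherwise the 4 with the smallest p, or the 2 where none passed), passing cell type markers, and the 5 profiles nearest to Ppargc1a and to Ppargc1b. Other pathway genes in the text were picked for their known role after values were seen. The motifs were chosen with the sequences in view. Alternatives changed the normalization, dim filter, offset (16 added), probe set choice, variance prior, array weights or replicate block, or left out each array.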

Additional observations from a re-analysis of the deposited data

How the results depend on the processing

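Ppargc1a and Ppargc1b passed in limma under 17 of 17 alternatives, and the other 8 genes under none. Among 36 named genes, 548 of 608 values kept their direction and side of the threshold, 46 lost a call, 4 gained one and 10 turned sign. The sign turned for Esrra with quantile normalization (-0.0039), cyclic loess (-0.0015) and array weights (-0.00079), for Esrrb with array weights (7.2e-05), and with arrays left out, where values ran from -0.0367 to 0.0733 for Esrra, -0.0967 to 0.045 for Esrrb and -0.0367 to 0.0483 for Esrrg. Pprc1 and Nrf1 were not tested under the stricter dim filter, which removes them. Genes past the threshold numbered 488, with 292 without the variance trend, 586 with the replicate block, and 262 to 648 with 1 array left out (276 without 2MT 2, 262 without 2MT 3, 298 without saline 1 and 648 without saline 3). The upstream list had 2, with 1 under each of the 3 other normalizations, every probe set, no variance trend or no dim filter, 4 with the replicate block, and 1 to 2 with 1 array left out. The receptor and factor partners had 1, with 2 under quantile normalization, the stricter dim filter, array weights or the replicate block, and 0 to 3 with 1 array left out. The energy metabolism targets had 3, with 5 with the replicate block and 2 to 5 with 1 array left out. The lists with 0 had 1 in coactivator partners with array weights, 1 in import genes with cyclic loess, and 0 to 1 with 1 array left out in the import and mitochondrial DNA lists. Over the 17 alternatives the list medians took both signs for coactivator partners (-0.012 to 0.052), receptor and factor partners (-0.032 to 0.005), mitochondrial DNA genes (-0.015 to 0.062), energy metabolism targets (-0.014 to 0.022) and import genes (-0.032 to 0.017), and stayed above 0 for the upstream list (0.049 to 0.094) and for dynamics and mitophagy (0.018 to 0.05). Same-numbered arrays of the groups deviated together at correlations of 0.07, 0.04 and 0.02, beside -0.08 to 0.04 for arrays of different number. The labels give them only a shared number, and whether they are paired is not settled here. The replicate block ended no call of the 10 genes, and 5 of 6 arrays correlated best with their own number in the other group. These matches are not independent of each other, because the deviations were taken from each group's own mean. The correlations are also small, so the count cannot decide whether the arrays are paired. The cause of these changes was not tested. Where 1 array was left out, fewer arrays were also fitted. Dim genes such as Pprc1 and Nrf1 are limited by signal over background, which is unknown.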
